A study of Homo sapiens with 4 samples.

Results

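The IFIT and IFI genes are 10 interferon-induced genes that were followed here across RNA-seq libraries of HT8 cells, which the labels describe as a human colon cancer line. They are IFIT1, IFIT2, IFIT3, IFIT5, IFI6, IFI27, IFI44, IFI44L, IFI35 and IFI16, taken by symbol from the 58735 genes of the deposited tables, and each matched 1 gene ID. The 2 groups were a group labelled PPDPF knockdown, with the source name HT8-cas1, and a control group of HT8 cells, each with 2 libraries. The labels do not name the agent behind the knockdown, the number of clones or any interferon treatment. Nor do they say that replicates are separate cultures, so a p-value below reflects how far these 4 libraries differ, which may be technical. The families were chosen by their lower FPKM in the libraries labelled knockdown than in control, so their levels and ratios below are a description and carry no test.

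Type I and type III interferons bind receptors whose JAK kinases activate latent transcription factors. A complex that holds STAT2 and IRF9 then binds the interferon-stimulated response element, a promoter sequence built on repeated GAAA, and switches on many genes. The IFIT proteins are built of tetratricopeptide repeats and bind foreign RNA, while the IFI names collect interferon-induced proteins of unrelated structure. In epithelial cells these genes serve as a readout of interferon signalling.

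PPDPF, the targeted gene, had 281 and 283 FPKM in the libraries labelled knockdown, against 237 and 266 FPKM in control. It was thus not lower (log2 fold change 0.16, limma adjusted p = 0.0940), which is why the text speaks of libraries labelled knockdown. FPKM puts reads per gene on a common scale, corrected for exon length and sequencing depth. Reads in genes numbered 17069628 to 17330674 in the libraries labelled knockdown and 17348315 to 19479906 in control. Of 8 colon epithelium markers, all of which passed the filter, 4 rose, 1 fell and 3 did not pass (limma). EPCAM, a surface protein of epithelia that was not called, had 194 and 204 FPKM in the libraries labelled knockdown and 183 and 190 FPKM in control. The keratin genes KRT20, KRT19 and KRT8 and the villin gene VIL1 rose to 525%, 130%, 116% and 112% of control (limma adjusted p = 0.00551, 0.00306, 0.0195 and 0.0348). KRT20 was low, with 2.61 and 2.94 FPKM (83 and 92 reads) in the libraries labelled knockdown and 0.339 and 0.717 FPKM (11 and 26 reads) in control. The cadherin gene CDH1 fell to 91.1% of control (limma adjusted p = 0.0377). The 8 markers summed to 3068 to 3091 FPKM in the libraries labelled knockdown and 2578 to 2756 FPKM in control. The leukocyte genes PTPRC and CD3E were listed at 0 in every library, as were 3 of 6 fibroblast and 2 of 4 endothelial markers. The summed level of the 6 leukocyte markers was 1.21 to 1.26 FPKM in the libraries labelled knockdown and 2.01 to 2.18 FPKM in control, most of it CD14. The 6 fibroblast markers summed to 0.377 to 0.504 FPKM in the libraries labelled knockdown and 0.640 to 0.706 FPKM in control, while the 4 endothelial markers summed to 0.108 to 0.185 FPKM in the libraries labelled knockdown and 0.0456 to 0.121 FPKM in control. The part of these markers in the results below was not tested.

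The promoters are shown first, since the response element is known to switch on many interferon-induced genes. RefSeq windows of 250 bases before to 50 bases after a gene start (build GRCh38.p14) matched 9 of the 10 genes, all but IFIT2, in 13 windows. Each was searched on both strands for the core of the response element, which is GAAA, any 2 bases and GAAA again, and for TTCNNNGAA, the core of the gamma-activated site, another interferon response sequence. The response element core was found in 7 of the 9 genes and in 10 of the 13 windows. Of all 27305 genes with a window, 4.38% held it in at least 1 window. Of all 35116 windows, 3.57% held at least 1 copy and 0.259% held 2 or more. The stretches below carry the matches in capitals with 20 bases on either side, read along the gene's own strand, so that TTTC pairs mark a match on the other strand.
IFIT1, chr10:89392487-89392549, plus strand: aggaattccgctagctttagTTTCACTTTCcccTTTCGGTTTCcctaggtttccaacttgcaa
IFIT3 upstream start, chr10:89327821-89327904, plus strand: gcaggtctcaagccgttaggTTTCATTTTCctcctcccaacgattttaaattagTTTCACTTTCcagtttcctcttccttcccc
IFIT3 downstream start, chr10:89332415-89332507, plus strand: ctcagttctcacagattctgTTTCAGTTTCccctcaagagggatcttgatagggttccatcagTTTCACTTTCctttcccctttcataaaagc
IFIT5, chr10:89414503-89414593, plus strand: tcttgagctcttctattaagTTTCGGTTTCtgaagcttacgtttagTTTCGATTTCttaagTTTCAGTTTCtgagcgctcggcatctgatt
IFI6, chr1:27672256-27672368, minus strand: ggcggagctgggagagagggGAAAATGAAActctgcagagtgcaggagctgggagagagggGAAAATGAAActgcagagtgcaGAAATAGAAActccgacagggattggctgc
IFI27, chr14:94110608-94110670, plus strand: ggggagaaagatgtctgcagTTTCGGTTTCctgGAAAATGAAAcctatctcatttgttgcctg
IFI44, chr1:78649751-78649800, plus strand: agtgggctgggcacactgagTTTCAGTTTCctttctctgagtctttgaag
IFI44L, chr1:78620264-78620404, plus strand: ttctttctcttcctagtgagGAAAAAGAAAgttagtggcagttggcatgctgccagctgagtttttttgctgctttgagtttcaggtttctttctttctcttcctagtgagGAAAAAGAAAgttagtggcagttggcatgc

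In IFIT1 the matches lay 116 to 107 and 103 to 94 bases before the start. IFIT5 and IFI6 held 3 matches each. In IFI6 the first pair sat in 2 exact copies of 29 bases, 41 bases apart, and in IFI44L both matches sat in 2 exact copies of 85 bases, 91 bases apart. IFI27 held 2 matches in opposite orientation, and the 3 bases between them formed part of a TTCNNNGAA match that overlaps both. IFI35 held no response element core, and it is shown with its 1 TTCNNNGAA match in capitals, a sequence that 7.66% of all windows held.
IFI35, chr17:43006742-43006790, plus strand: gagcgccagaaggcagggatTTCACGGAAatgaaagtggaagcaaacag
Neither motif was found in the windows of IFI16. A match describes letters in these windows and not a bound site. Of the other tested genes with a window, 334 held the response element core, and of these 74 (22.2%) were called lower and 58 (17.4%) higher. Of these 74, 20 belong to the list of other interferon-stimulated genes below, which was set up with earlier results known. Among the 8548 without it, 1079 (12.6%) were called lower and 1551 (18.1%) higher. Of the 34 with 2 or more copies, 14 (41.2%) were called lower, 9 of which belong to that list. These shares were not tested.

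IFI6 had by far the highest FPKM of the 10 genes, and it differed most among those above 1 FPKM. Levels of different genes in FPKM depend on exon length, which was 865 bases for IFI6 and 4147 for IFI27. In reads IFI27 was above IFI6 in every library, with 7923 and 10399 against 7511 and 9487 in control. IFI6 (ENSG00000126709, GRCh38 chromosome 1, 27666061 to 27672218) encodes a small hydrophobic protein of intracellular membranes that restrains cell death. It had 127 and 128 FPKM in the libraries labelled knockdown, against 494 and 558 FPKM in control. The groups did not overlap, and the libraries labelled knockdown differed from each other by less than the controls did. The means were 127 ± 1.26 FPKM in the libraries labelled knockdown and 526 ± 45.4 FPKM in control (SD, n = 2 each), that is 24.2% of control. In bulk RNA, fewer cells that express a gene and less RNA per cell cannot be told apart.

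The summed level of the 10 genes was 399 ± 12.9 FPKM in the libraries labelled knockdown and 992 ± 88.6 FPKM in control (SD, n = 2 each). IFI6 made up 32.5% and 31.5% of that sum in the libraries labelled knockdown, against 53.2% and 52.9% in control. It accounted for 67.2% of the difference between the 2 sums. These shares are of FPKM and depend on exon length, which favours short genes such as IFI6. In reads the 10 genes summed to 18862 and 19693 in the libraries labelled knockdown, of which IFI6 had 1890 and 1883. The control sums were 36639 and 46617 reads, of which IFI6 had 7511 and 9487.

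IFI27 belongs to the same family as IFI6 and encodes a small mitochondrial protein. IFI27 (ENSG00000165949, chromosome 14, 94104836 to 94116698) had 59.1 and 60.4 FPKM in the libraries labelled knockdown, against 109 and 128 FPKM in control. Its ratio, 50.6% of control, was thus nearer to that of the IFIT genes than to that of IFI6. IFI27L1 and IFI27L2, paralogs that lie beside IFI27, are not among the 10 and carry a test. IFI27L1 had 4.16 and 4.71 FPKM in the libraries labelled knockdown and 4.64 and 4.55 FPKM in control (limma adjusted p = 0.684). IFI27L2 had 10.25 and 11.04 FPKM in the libraries labelled knockdown and 13.0 and 11.8 FPKM in control (limma adjusted p = 0.0750). Whether either differs in its response from IFI27 was not tested.

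**Figure D1:**
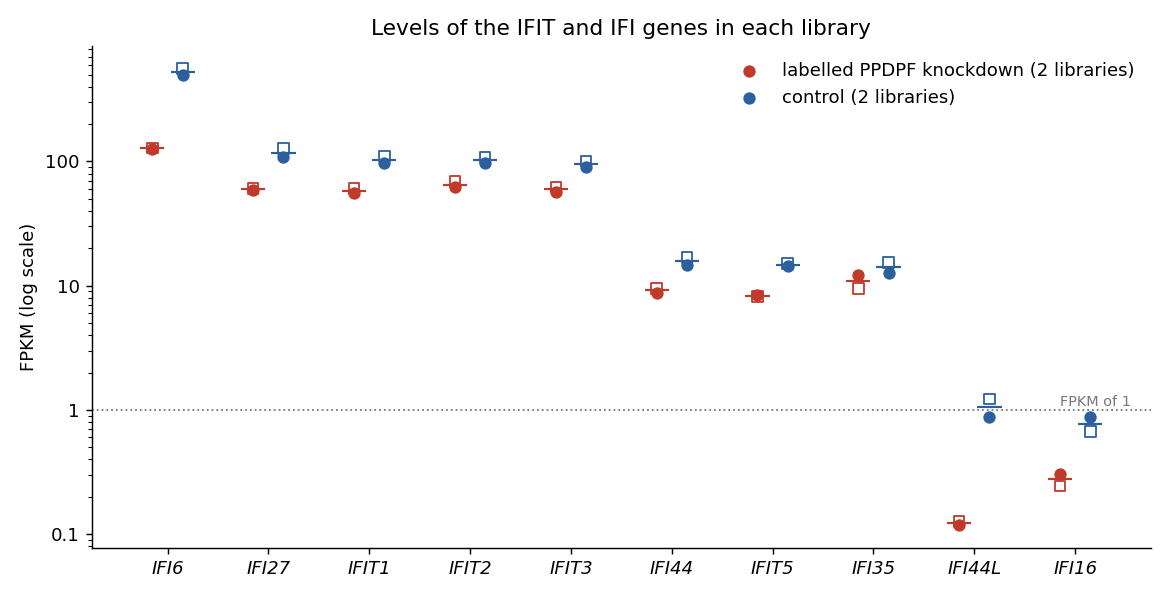
FPKM on a log scale of the 10 genes in each library, ordered by control level, with filled circles for replicate 1, open squares for replicate 2 and lines for group means. The libraries labelled knockdown (left, red) lie below the controls (right, blue) for each gene, and IFI44L and IFI16 lie near or below 1 FPKM.

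The 4 IFIT genes lie within 137 kb of chromosome 10 (89283694 to 89421001) and had 55.9% to 63.8% of their control level. IFIT1 binds capped RNA that lacks ribose methylation and blocks its translation. IFIT1 (ENSG00000185745, 89392546 to 89406486) had 55.3 and 60.5 FPKM in the libraries labelled knockdown, against 96.9 and 110 FPKM in control. IFIT2, which pairs with the other IFIT proteins and promotes cell death, is encoded by ENSG00000119922 (89283694 to 89309276). It had 61.8 and 68.8 FPKM in the libraries labelled knockdown, against 96.6 and 108 FPKM in control. IFIT3, which stabilises IFIT1 and strengthens its hold on RNA, is encoded by ENSG00000119917 (89327894 to 89340971). It had 57.3 and 62.5 FPKM in the libraries labelled knockdown, against 89.7 and 101 FPKM in control. The groups did not overlap for any of the 3, and within each group replicate 2 was the higher library.

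IFIT5 was the low member of the family. It binds RNA with a triphosphate end and, unlike the others, works as a monomer. IFIT5 (ENSG00000152778, 89414586 to 89421001) had 8.38 and 8.23 FPKM in the libraries labelled knockdown, against 14.3 and 15.1 FPKM in control, 56.5% of control. The 4 ratios of a single library labelled knockdown to a single control spanned 0.546 to 0.585 for IFIT5, the narrowest relative range among the 10 genes. Within a library, IFIT2 was 1.12 and 1.14 times IFIT1 in the libraries labelled knockdown and 0.998 and 0.978 times IFIT1 in control. IFIT3 was 1.03 times IFIT1 in both libraries labelled knockdown and 0.926 and 0.914 times in control. IFIT5 was 0.152 and 0.136 times IFIT1 in the libraries labelled knockdown and 0.148 and 0.136 times in control. So by FPKM the order of IFIT1, IFIT2 and IFIT3 was not the same in the 2 groups, whereas the ranges of the IFIT5 to IFIT1 ratio overlapped. Part of that order lies within counting error, as given by exact 95% Poisson intervals. These overlapped for IFIT1 and IFIT2 in both controls, and for IFIT1 and IFIT3 in both libraries labelled knockdown. IFIT1B, a paralog of IFIT1 in the same stretch, was nearly silent, at 0.0598 to 0.0881 FPKM in the libraries labelled knockdown and 0.0288 to 0.181 FPKM in control.

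IFI44 and IFI44L are neighbours within 44.2 kb of chromosome 1 and encode related cytosolic proteins, of which IFI44L is known to dampen the interferon response. IFI44 (ENSG00000137965, 78649796 to 78664078) had 8.81 and 9.52 FPKM in the libraries labelled knockdown, against 14.6 and 16.8 FPKM in control, 58.3% of control. IFI44L (ENSG00000137959, 78619922 to 78646145) had 0.119 and 0.127 FPKM in the libraries labelled knockdown, against 0.877 and 1.22 FPKM in control. It had the lowest ratio of the 10 genes, 11.7% of control, at a level close to the lowest. These values rest on 21 and 22 reads in the libraries labelled knockdown and 158 and 246 reads in control. The exact 95% Poisson intervals, which cover counting error only, reached at most 0.192 FPKM in the libraries labelled knockdown and did not go below 0.746 FPKM in control.

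IFI35, a leucine zipper protein, had the smallest difference, and its groups came closest to overlapping. IFI35 (ENSG00000068079, chromosome 17, 43006725 to 43014456) had 12.3 and 9.48 FPKM in the libraries labelled knockdown, against 12.7 and 15.4 FPKM in control. Replicate 1 of the 2 groups was close, with 419 reads in the library labelled knockdown and 439 in control, and the counting intervals of these 2 libraries overlapped. On the log2(FPKM + 1) scale the difference was -0.34, with -0.51 without knockdown replicate 1, -0.17 without knockdown replicate 2 and -0.21 without control replicate 2. NMI, which binds IFI35, had 4.81 and 5.71 FPKM in the libraries labelled knockdown, against 7.43 and 7.66 FPKM in control. It fell to 69.7% of control (limma adjusted p = 0.0163).

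IFI16, a nuclear and cytosolic DNA sensor of the PYHIN family, was barely expressed. IFI16 (ENSG00000163565, chromosome 1, 158999968 to 159055155) had 0.306 and 0.245 FPKM in the libraries labelled knockdown, against 0.881 and 0.673 FPKM in control. It had 28 and 22 reads in the libraries labelled knockdown and 82 and 70 reads in control, and 35.5% of the control level. The other PYHIN genes AIM2, MNDA and PYHIN1 were listed at 0 in every library. Among genes of the DNA sensing route, TMEM173, which encodes the adaptor STING, fell to 75.2% of control (limma adjusted p = 0.0396). The kinases IKBKE and TBK1 rose to 147% and 116% of control (limma adjusted p = 0.0143 and 0.0290), and TREX1 was listed at 0.

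**Figure D2:**
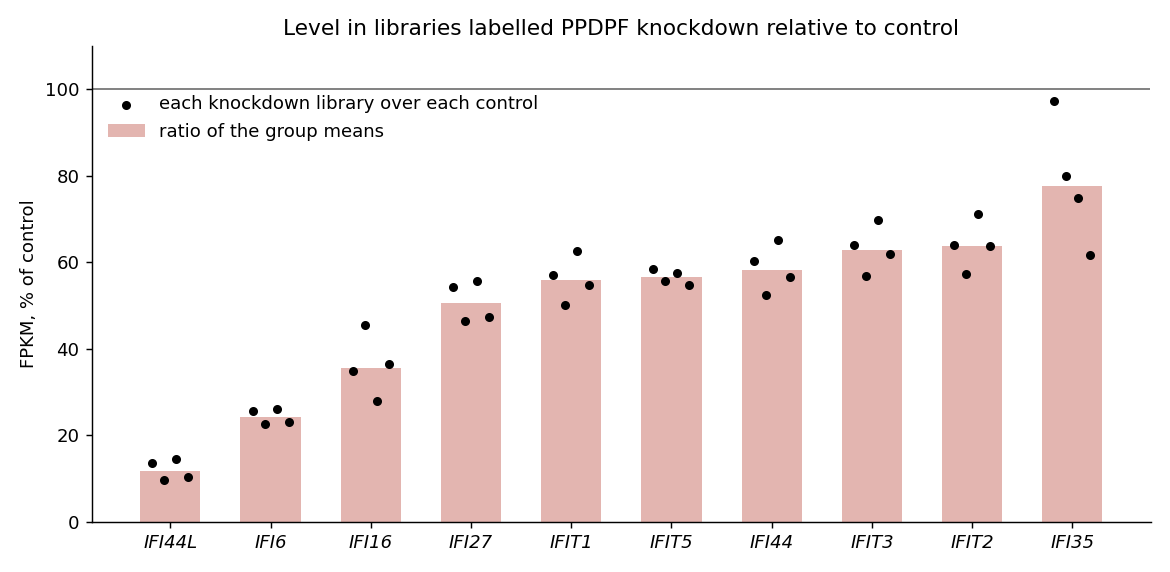
FPKM in the libraries labelled knockdown as a percentage of control, with bars for the ratio of group means and dots for the 4 ratios of a single library labelled knockdown to a single control. IFI44L and IFI6 are lowest at 11.7% and 24.2%, and IFI35 is highest at 77.7% with its 4 single ratios from 0.615 to 0.973.

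The order of the levels in FPKM, which depends on exon length, differed in part between the groups. In the libraries labelled knockdown IFI6 stood first at 127 FPKM, followed by IFIT2, IFIT3, IFI27 and IFIT1 at 65.3 to 57.9 FPKM, each overlapping the next. IFI35 then came before IFI44 at 10.9 and 9.17 FPKM, with overlapping ranges, and IFIT5 followed at 8.31 FPKM. IFI16 lay above IFI44L at 0.276 and 0.123 FPKM, with counting intervals that were apart in replicate 1 and overlapped in replicate 2. In control IFI6 stood alone at 526 FPKM, and IFI27, IFIT1, IFIT2 and IFIT3 lay at 118 to 95.3 FPKM with overlapping neighbours. IFI44, IFIT5 and IFI35 came next with overlapping ranges, the first of them at 15.7 FPKM. IFI44L and IFI16 came last at 1.05 and 0.777 FPKM and also overlapped. The lowest ratios to control belonged to IFI6, first by FPKM, and to IFI44L, among the last.

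For all 10 genes both libraries labelled knockdown lay below both controls, as they did for 33.8% of the 12777 genes tested. Tested means a mean of at least 1 FPKM over the 4 libraries, which left out IFI44L and IFI16. Of the 8 that passed, 7 were called lower by limma at an adjusted p under 0.05 and IFI35 was not called, where 13.0% of all tested genes were called lower, 16.8% higher and 29.9% in either direction. As the genes were chosen with this difference known, nothing is read from these counts. The median log2 fold change of FPKM + 1 was -0.73 over the 10 genes and 0.0011 over all tested genes. This scale understates the change of low genes, with -0.86 for IFI44L.

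Replicates of a group also differed, a comparison that the choice of genes did not use. In the libraries labelled knockdown replicate 2 was the higher for 7 of the 10 genes, at a median ratio to replicate 1 of 1.04, and for 52.1% of all tested genes. In control replicate 2 was the higher for 9 of the 10 genes, IFI16 being the exception, and for 50.6% of all tested genes. The median ratio in control was 1.14 over the 10 genes and 1.00 over all tested genes. Of single genes, IFI44L had the highest ratio in control at 1.39, while IFI6 had 1.13, IFI27 1.17 and IFIT1 1.14. The counting intervals of the 2 libraries did not overlap for 4 of the 10 genes in the libraries labelled knockdown and for 7 of the 10 in control. Such intervals are narrow for genes with many reads. The share over all tested genes was not computed, so nothing is read from these counts. The list of 40 other interferon-stimulated genes, described below, had 29 genes higher in replicate 2 in the libraries labelled knockdown and 39 in control, where the median ratio was 1.13. With 1 library on each side this has no test. IFI35 stood apart, with a ratio of 0.770 in the libraries labelled knockdown and 1.22 in control.

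**Figure D3:**
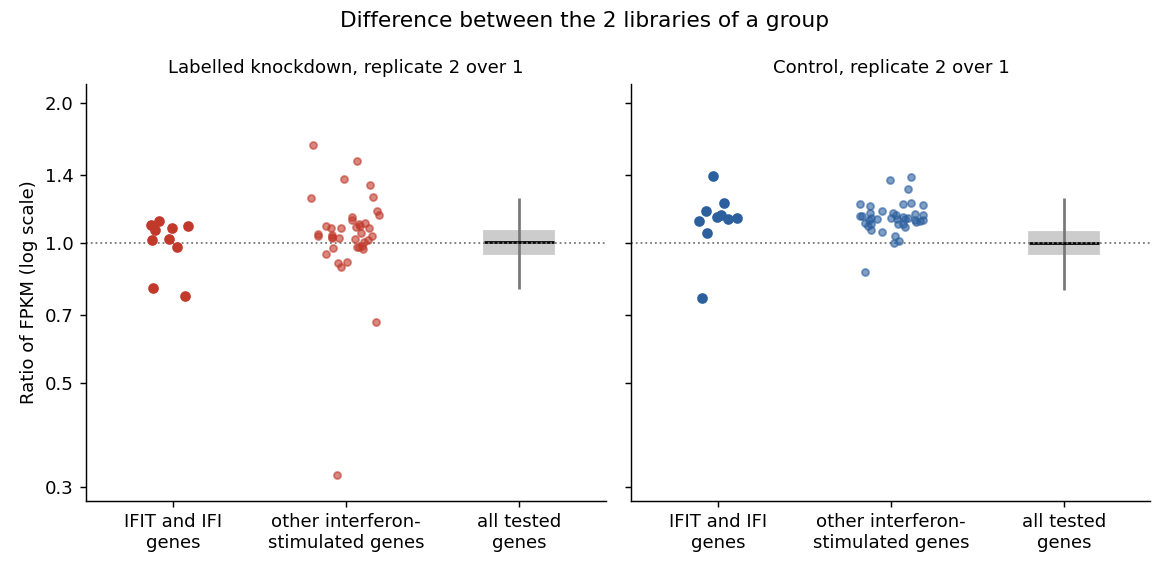
Ratio of FPKM in replicate 2 to replicate 1 on a log scale, in the libraries labelled knockdown (left) and in control (right), with 1 dot per gene. For tested genes above 0 in all libraries the box runs from the 25% to the 75% quantile, the line is the median and the whisker runs from the 5% to the 95% quantile. In control, 9 of the 10 IFIT and IFI genes and 39 of 40 other interferon-stimulated genes lie above 1, most of them inside the whisker of all genes.

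The other interferon-stimulated genes showed a like median, and the list was set up with earlier results of these data known. Of 40 listed, 37 were tested, and 32 fell, 1 rose and 4 did not pass (limma, 13.0% of all tested genes lower). Their median log2 fold change was -0.75. CMPK2, a mitochondrial nucleotide kinase, had 1.91 and 2.18 FPKM in the libraries labelled knockdown, against 11.7 and 12.3 FPKM in control (limma adjusted p = 0.000597). The antiviral GTPase gene MX1 and IFITM1, which blocks virus entry, fell to 17.6% and 13.2% of control (limma adjusted p = 0.000685 for both). LY6E, a GPI-anchored surface protein, was the 1 that rose, to 339% of control (limma adjusted p = 0.000780). The 4 that did not pass were IFITM2, ISG20, DHX58 and PARP12, named after their values were seen, at 60.5%, 84.3%, 74.3% and 102% of control. Promoter windows were found for 31 of the 40 genes, and 22 of these held the response element core.

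Upstream genes of the pathway did not move one way. Of 16 receptors, kinases and transcription factors, 13 were tested, of which 3 fell, 4 rose and 6 did not pass. Of all tested genes, 13.0% were called lower and 16.8% higher. The 13 had a median log2 fold change of 0.025. The transcription factor IRF7 had 12.5 and 13.3 FPKM in the libraries labelled knockdown, against 34.7 and 38.7 FPKM in control (limma adjusted p = 0.000865). IRF7 is itself known to be interferon-induced. The interferon gamma receptor chain IFNGR2 rose to 159% of control and the kinase JAK1 to 135% (limma adjusted p = 0.00169 and 0.00275). Named after their values were seen, STAT2 fell to 72.4% of control, and IFNGR1 and IFNLR1 rose to 137% and 139% (limma adjusted p = 0.0123, 0.00758 and 0.0164).

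IRF9, the partner of STAT2, was under the filter, with 0.275 and 0.466 FPKM in the libraries labelled knockdown and 0.749 and 0.885 FPKM in control. In GENCODE 29, 48.4% of the exon bases of IRF9 also belong to another gene, as do 83.3% of IFNAR2, 38.1% of IL10RB and 100% of TREX1, all 4 of which were listed below 1 FPKM. Whether the counting removed reads from such genes was not tested. Of the 10 genes, IFIT2 shared 10.3% of its exon bases with other genes and the other 9 shared none. LIPA, a lysosomal lipase gene on the opposite strand, overlaps the loci of IFIT1, IFIT2 and IFIT3 and had 17.9 and 18.3 FPKM in the libraries labelled knockdown, against 20.7 and 23.2 FPKM in control. Its reads and those of IFIT2 cannot be told apart where their exons overlap, which is 65 of the 4101 exon bases of IFIT2. AL353751.1, the other gene that shares exon bases with IFIT2, was listed at 0 in every library.

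Interferon genes were near the floor. Of 10 listed, 4 were at 0 in every library and only IFNL1, a type III interferon, was tested, with 3.72 and 4.13 FPKM in the libraries labelled knockdown and 3.32 and 5.22 FPKM in control (limma adjusted p = 0.782). IFNB1, named after its values were seen, had 0.742 and 0.412 FPKM in the libraries labelled knockdown and 1.06 and 1.36 FPKM in control. These values rest on 11 and 6 reads in the libraries labelled knockdown and 16 and 23 in control, so depth limits them. Among 6 negative regulators of the pathway 1 fell, 1 rose and 4 did not pass (limma, 13.0% of all tested genes lower and 16.8% higher). USP18, which removes ISG15 and blocks the receptor, fell to 51.2% of control and the phosphatase PTPN6 rose to 135% (limma adjusted p = 0.000865 and 0.0160). SOCS1 and PIAS1 had 76.8% and 96.0% of control and were not called. Of 4 enzymes that build the mRNA cap, CMTR1, which adds the ribose methyl group that IFIT1 reads, fell to 85.7% of control (limma adjusted p = 0.0246). RNGTT, CMTR2 and RNMT had 88.5%, 112% and 101% of control and were not called.

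**Figure D4:**
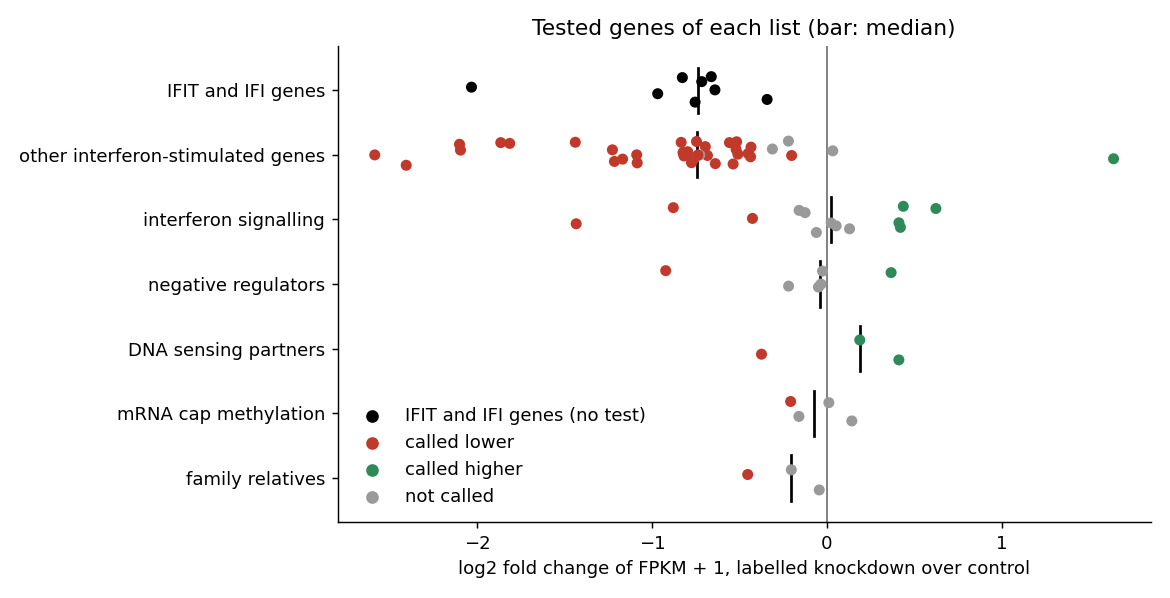
Log2 fold change of FPKM + 1, libraries labelled knockdown over control, for the tested genes of each list, with 1 dot per gene, coloured by call, and a bar at the median. The 8 IFIT and IFI genes above the filter (black, no test) and the other interferon-stimulated genes have medians of -0.73 and -0.75, while the signalling genes scatter on both sides of 0.

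Genes near the 10 on the chromosome had medians close to 0, while single neighbours ranged more widely. Within 500 kb of IFIT1, 7 other genes were tested, of which 1 rose and 2 fell, with a median log2 fold change of 0.12 and a range from -0.30 to 0.32. Around IFI6, 20 neighbours were tested and 4 rose and 1 fell, at a median of 0.074 and a range from -0.45 to 1.21. IFI27 had 5 tested neighbours, at a median of -0.043 and a range from -0.20 to 0.25. Around IFI35, 31 were tested and 3 rose, at a median of 0.13 and a range from -0.53 to 0.79. Over all tested genes the shares were 13.0% lower and 16.8% higher. IFI44L had 1 tested neighbour, at -0.066, and IFI44 and IFI16 had none.

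**Figure D5:**
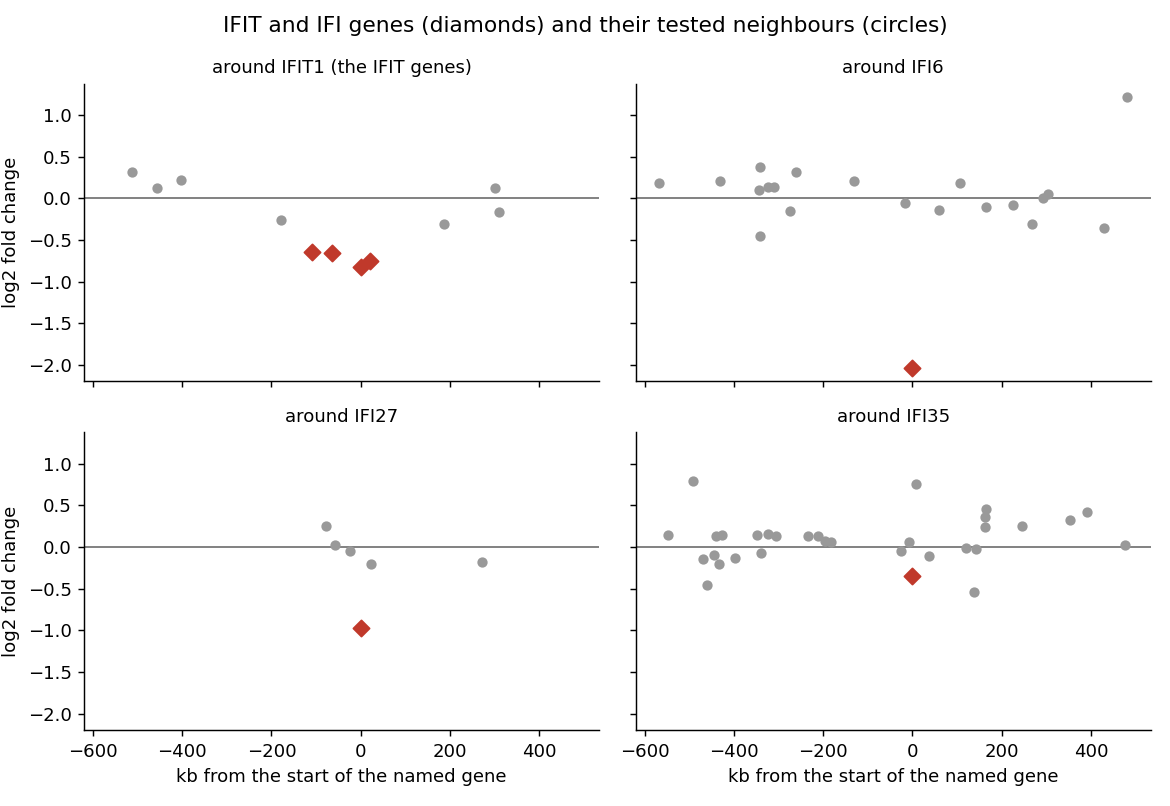
Log2 fold change of FPKM + 1, libraries labelled knockdown over control, against the distance in kb between gene starts, for tested genes within 500 kb of IFIT1, IFI6, IFI27 and IFI35. The IFIT and IFI genes (diamonds) reach -2.03 for IFI6, while the medians of their neighbours (circles) lie between -0.043 and 0.13. Single neighbours run from -0.53 near IFI35 to 1.21 near IFI6.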

How the data were processed

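The authors deposited FPKM per gene in 1 table per library, per the file headers. HISAT2 2.0.5 and hg18 appear in the submitters' processing notes. No source used here gives the counting tool or its strand setting, and without strand a gene and its antisense partner cannot be told apart. All 58735 gene IDs matched GENCODE 29, so coordinates are on GRCh38. Reads were recovered by multiplying each FPKM value by the gene's merged exon length and dividing by what 1 read was worth in that library, estimated from the steps between low values, and 100% of values above 0 came within 0.01 of a whole number. The 10 genes, the lists and the alternatives were chosen with earlier results of these data known. Groups came from the genotype labels. Genes with a mean of at least 1 FPKM (12777) entered limma-trend (limma 3.58.1, R 4.3.3) as log2(FPKM + 1), with the 2 groups as the only term, and Benjamini-Hochberg adjustment of the two-sided p ran over all of them. Named genes were the 10 genes, up to 4 tested genes with the smallest p per list, all paralogs and partners, and the 5 genes most like the 10. Some genes that this rule or the marker lists hold are not reported here. Over 50-base windows of their transcripts, at most 7.91% (IFIT2) also occurred in transcripts of another gene, and 1.02% for IFIT1, mostly in IFIT1B. The symbol MB21D1 matched no gene ID. IFI30, of the list of paralogs and partners, lay under the filter at 0.103 to 0.140 FPKM. Alternatives were another pseudocount, other filters, quantile normalization, limma-voom on the recovered reads, the replicate number as a block and each library left out. Figures used matplotlib 3.10.9.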

Additional observations from a re-analysis of the deposited data

How the results depend on the processing

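The 10 log2 fold changes kept their sign under each alternative that gave a value, which is no sign of stability, since genes whose groups do not overlap keep it when a library is left out. Filters and the replicate block leave these values as they are by construction, and a left-out library cannot move them past the spread between replicates. Among the values with another pseudocount, quantile normalization or limma-voom, those that moved by more than that spread were IFIT5 with limma-voom (-0.85) and with a pseudocount of 0.1 (-0.82), and IFI44L (-2.35) and IFI16 (-1.22) with a pseudocount of 0.1. IFI44L and IFI16 have no value with quantile normalization, limma-voom or a mean of at least 5 FPKM, since they lie under those filters. The median over the 10 genes was -0.67 to -0.80 with a library left out, -0.83 with limma-voom (8 genes) and -0.83 with a pseudocount of 0.1. The count of other interferon-stimulated genes called lower was 27 to 35, and of signalling genes 2 to 4. Over all genes, with no filter 1134 were called higher and 734 lower, and with limma-voom 2709 were lower. With a library left out, 1141 to 1345 were higher and 775 to 919 lower, where 1 group is a single library that is assumed to vary like the other group, with 1 residual degree of freedom before limma pools the spread over genes. The cause of the other shifts was not tested. The replicate block gave 1899 higher and 1405 lower. Deviations of libraries with the same replicate number correlated with an r of -0.0021 across genes, which are not independent replicates. The labels give only a number, and this r cannot tell whether libraries of the same number were handled together. Of the 10 genes, replicate 2 was the higher for 7 in the libraries labelled knockdown and for 9 in control. Whether the libraries are paired was not tested. Depth limits IFI44L and IFI16, with 21 to 28 reads in the libraries labelled knockdown.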

Other observations

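Among 7868 other genes with a mean of at least 5 FPKM, those whose profile over the 4 libraries was most like the mean of the 8 IFIT and IFI genes above the filter included HES1, WARS, LGALS3BP and MT-TC. Likeness was the root mean square distance of log2(FPKM + 1) values, each gene centred on its own mean. The distances were 0.0229 for HES1, 0.0326 for WARS, 0.0365 for LGALS3BP and 0.0456 for MT-TC. LGALS3BP is also on the list of other interferon-stimulated genes above. The 8 genes that defined the mean profile lay at 0.0423 (IFIT1) to 0.583 (IFI6) from it. HES1, a transcriptional repressor and a target of Notch signalling, had 21.4 and 21.8 FPKM in the libraries labelled knockdown, against 39.1 and 42.7 FPKM in control. The mitochondrial tRNA gene MT-TC had 657 and 651 FPKM in the libraries labelled knockdown, against 1206 and 1316 FPKM in control. The genes were picked by this measure, so no test is given.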
